A study of Homo sapiens with 4 samples.

Results

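The 52 genes described here encode the machinery of human DNA replication forks and origins, and they were taken by symbol as the named subunits and factors of its complexes. The list was drawn up with earlier results of these data known, though no measured value enters the rule. All 52 were found among the 60606 genes of the count table, and all 52 passed the filter on low counts that left 19349 genes for testing. RNA was measured by poly(A) RNA-seq in DaroR cells, a darolutamide-resistant line derived from LNCaP, a human prostate cancer cell line, by months of culture with the antiandrogen darolutamide. Both groups were DaroR cells grown in RPMI1640 with 10% serum and transfected with siRNA by a lipid reagent: the siControl group (2 libraries) received a control siRNA, and the siLOC730101 group (2 libraries) received a pool of siRNAs against the long non-coding RNA LOC730101. For the knockdown, the study states that DaroR cells were cultured in medium with 10 μM darolutamide, which both groups thus shared. The comparison addressed what loss of LOC730101 does to expression of these genes. It rests on 1 resistant line, and neither the time from transfection to harvest nor the origin of the libraries from separate cultures is given in the sources used here, so p-values measure the spread between these libraries.

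Replication starts at origins that are licensed in G1 phase. The origin recognition complex (ORC), CDC6 and CDT1 load the ring-shaped MCM2-7 helicase onto DNA, and geminin and the DTL ubiquitin ligase adaptor keep CDT1 from acting again in S phase. CDC45 and the GINS complex then join MCM2-7 to form the active helicase. DNA polymerase alpha-primase lays down primers, polymerase epsilon copies the leading strand and polymerase delta the lagging strand, both held on DNA by the PCNA clamp that replication factor C (RFC) loads. Replication protein A (RPA) coats the single-stranded DNA, FEN1 and ligase 1 join Okazaki fragments, TIMELESS and TIPIN stabilise the fork, and ribonucleotide reductase, thymidylate synthase and thymidine kinase supply deoxynucleotides. Many of these genes are transcribed towards S phase under the E2F factors, and CCAAT boxes, bound by NF-Y, are common in promoters of cell cycle genes.

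Promoters of 6 members are shown because they span the results: RPA1 and RRM2 had the lowest adjusted p-values, RFC3, DTL and GINS1 were among the lowest in fold change, and MCM7 differed little between the groups. Each runs from 250 bases before to 50 bases after a start of the gene in RefSeq (build GRCh38.p14), and is written 5′ to 3′ along the gene. Capitals mark the E2F letters TTTCCCGC, TTTCGCGC, TTTGCCGC or TTTGGCGC and the CCAAT box, each on either strand, so that GCGGGAAA, GCGCCAAA and ATTGG are the same letters read from the other strand. In MCM7, the second E2F match and the third CCAAT box overlap and appear as 1 run of capitals. MCM7 had 3 starts and RRM2 had 2. The start printed was the one with the most E2F matches, and then the most CCAAT boxes.
RPA1 promoter, chr17:1829755-1830054, plus strand: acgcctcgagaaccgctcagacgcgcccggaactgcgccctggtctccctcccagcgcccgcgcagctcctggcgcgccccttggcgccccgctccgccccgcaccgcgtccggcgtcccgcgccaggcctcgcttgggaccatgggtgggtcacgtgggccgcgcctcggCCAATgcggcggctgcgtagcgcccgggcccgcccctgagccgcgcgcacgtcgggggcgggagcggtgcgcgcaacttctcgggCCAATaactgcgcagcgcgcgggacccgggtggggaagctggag
RRM2 promoter, chr2:10122489-10122788, plus strand: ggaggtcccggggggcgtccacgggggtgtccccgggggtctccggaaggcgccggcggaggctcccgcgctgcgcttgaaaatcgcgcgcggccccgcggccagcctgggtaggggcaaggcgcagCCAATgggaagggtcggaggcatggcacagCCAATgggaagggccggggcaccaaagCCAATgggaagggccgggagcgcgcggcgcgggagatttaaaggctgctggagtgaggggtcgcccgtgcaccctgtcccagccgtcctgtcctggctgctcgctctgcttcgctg
RFC3 promoter, chr13:33817899-33818198, plus strand: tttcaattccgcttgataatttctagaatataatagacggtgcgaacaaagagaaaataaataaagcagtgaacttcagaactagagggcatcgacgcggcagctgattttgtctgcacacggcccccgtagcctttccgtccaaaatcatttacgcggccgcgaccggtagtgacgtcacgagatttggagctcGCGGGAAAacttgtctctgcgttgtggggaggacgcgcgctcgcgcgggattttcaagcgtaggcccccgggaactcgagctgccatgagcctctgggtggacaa
DTL promoter, chr1:212035498-212035797, plus strand: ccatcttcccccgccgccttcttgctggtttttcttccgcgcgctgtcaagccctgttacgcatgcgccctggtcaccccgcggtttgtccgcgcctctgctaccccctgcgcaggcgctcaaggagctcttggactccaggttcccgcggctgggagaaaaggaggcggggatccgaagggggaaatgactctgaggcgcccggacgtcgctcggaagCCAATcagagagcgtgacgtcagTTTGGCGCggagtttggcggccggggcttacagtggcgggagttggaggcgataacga
GINS1 promoter, chr20:25407423-25407722, plus strand: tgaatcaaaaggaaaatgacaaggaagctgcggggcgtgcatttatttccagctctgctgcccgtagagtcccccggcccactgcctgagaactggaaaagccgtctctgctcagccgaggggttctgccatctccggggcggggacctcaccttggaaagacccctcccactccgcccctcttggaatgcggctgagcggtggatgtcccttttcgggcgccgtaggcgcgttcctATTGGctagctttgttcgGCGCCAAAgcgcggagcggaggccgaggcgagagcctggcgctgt
MCM7 promoter, chr7:100101348-100101647, minus strand: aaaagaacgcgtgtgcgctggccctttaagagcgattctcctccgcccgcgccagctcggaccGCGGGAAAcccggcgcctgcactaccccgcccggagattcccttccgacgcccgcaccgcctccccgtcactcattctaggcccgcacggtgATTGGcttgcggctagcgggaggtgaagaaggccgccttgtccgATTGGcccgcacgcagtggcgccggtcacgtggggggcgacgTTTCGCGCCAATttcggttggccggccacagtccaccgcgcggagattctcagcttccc

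The RPA1 promoter held 2 CCAAT boxes and the RRM2 promoter 3, and neither held an E2F match. RFC3 had 1 E2F match that began 55 bases before the start and no CCAAT box. In DTL the E2F match began 8 bases before the start and a CCAAT box 31 bases before it. GINS1 held 1 of each, and MCM7 held 2 E2F matches and 3 CCAAT boxes. A promoter sequence was found for 46 of the 52 members. MCM4, MCM5, GINS4, POLD3, RPA2 and RPA3 had none in the table used.

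E2F letters were found in 23 of the 46 member promoters (50%), against 3.99% of 27305 genes with a promoter sequence and 6.33% of the 12236 of these that were tested. CCAAT boxes were in 30 member promoters (65.2%), against 39.7% of all and 42.5% of tested genes. The cell cycle homology region (CHR) letters TTTGAA were in 2 member promoters (4.35%), POLE3 and RRM1, against 18.2% of all and 13.7% of tested genes. Both E2F letters and a CCAAT box were present in 15 members, and neither in 8. A gene with several starts was counted when any of them held the letters. These are letter matches in a fixed window and not measured sites.

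Total counts were 53368158 and 46271037 in the siControl libraries and 40885634 and 39213498 in the siLOC730101 libraries. Levels below are normalised read counts, in CPM (counts relative to the library total, scaled by trimmed-mean factors), and each set of 4 values gives siControl replicates 1 and 2 and then siLOC730101 replicates 1 and 2. LOC730101 (ENSG00000216775, chr6:52664366-52669155, GRCh38) had 2560, 2370, 633 and 680 counts, with a log2 fold change of -1.56 (SE 0.12) and an adjusted p of 4.34e-06 by edgeR's quasi-likelihood test. Of 8 prostate luminal markers, among them KLK3, HOXB13 and KRT8, all were expressed in every library. Another 13 markers stood for leukocytes, fibroblasts, endothelium, basal epithelium and neuroendocrine cells. Of these 13, 7 had no count in any library and 10 stayed under 10 counts in all of them. The others were COL1A1 (797, 516, 451 and 462 counts), SYP (128, 105, 86 and 112) and KRT14 (18, 18, 8 and 24).

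Most replication genes were slightly lower after LOC730101 knockdown, and no single one passed the adjusted threshold. Log2 fold changes were below 0 in 45 of the 52 members (86.5%), against 50.4% of all genes tested. Their median was -0.16, with values from -0.43 for PRIM2 to 0.17 for POLE4, against a median of -0.0021 over all genes tested. The members' CPM summed to 3113, 3240, 2808 and 2912, so both knockdown libraries lay below both controls. In 31 members (59.6%) both siLOC730101 libraries were below both siControl libraries, against 20.5% of all genes tested, and in 0 members were both above, against 21.3%. Among the 10733 genes tested whose siControl level lay in the members' own range, 45.3% had a log2 fold change below 0 and 19.3% were lower without overlap. In bulk RNA, fewer cells in S phase and less RNA per cell cannot be told apart.

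**Figure D1:**
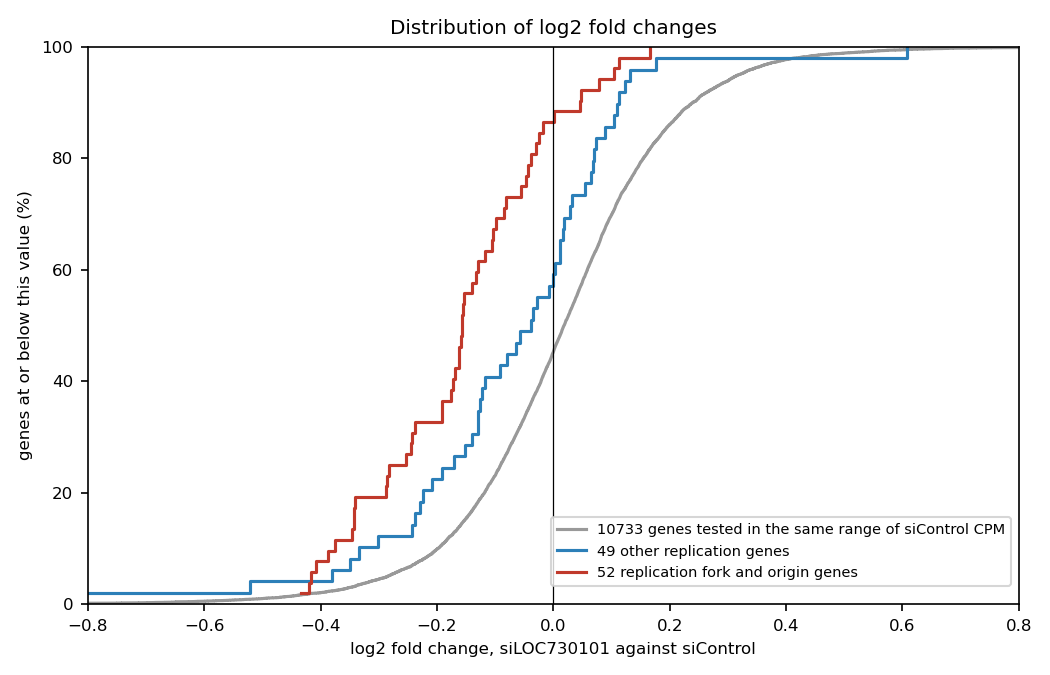
Cumulative share of genes (percent, vertical axis) by log2 fold change of siLOC730101 against siControl (horizontal axis, drawn over part of its range), for the 52 members in red, 49 other replication genes in blue and the 10733 genes tested in the same range of siControl CPM in grey. The red line lies to the left, reaching 86.5% at 0, where the grey line reaches 45.3%; 1 blue gene lies beyond the left edge.

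At an adjusted p under 0.05 in edgeR, 0 members were lower, against 0.0724% of genes tested, and 0 were higher, against 0.212%. At an unadjusted p under 0.05, 17 members (32.7%) were lower, against 4.39% of genes tested, and 0 were higher, against 6.43%. DESeq2 gave 4 members with an adjusted p under 0.05, RPA1, RRM2, RRM1 and RFC3, all lower, against 0.661% of the 9525 genes to which it gave an adjusted p. Without siLOC730101 replicate 1, edgeR called 4 members lower (DTL, RRM1, RPA1 and GINS1), against 0.667% of genes tested, and without siLOC730101 replicate 2 it called 1, RPA1, against 0.103%. Comparing 1 library of each group at a time, the members' median log2 ratio ran from -0.20 to -0.11, and 38 to 46 of the 52 were below 0. The single-gene values below are from the edgeR fit of all 4 libraries with trimmed-mean scaling, in which none passed the adjusted threshold; other settings called up to 6 members.

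**Figure D2:**
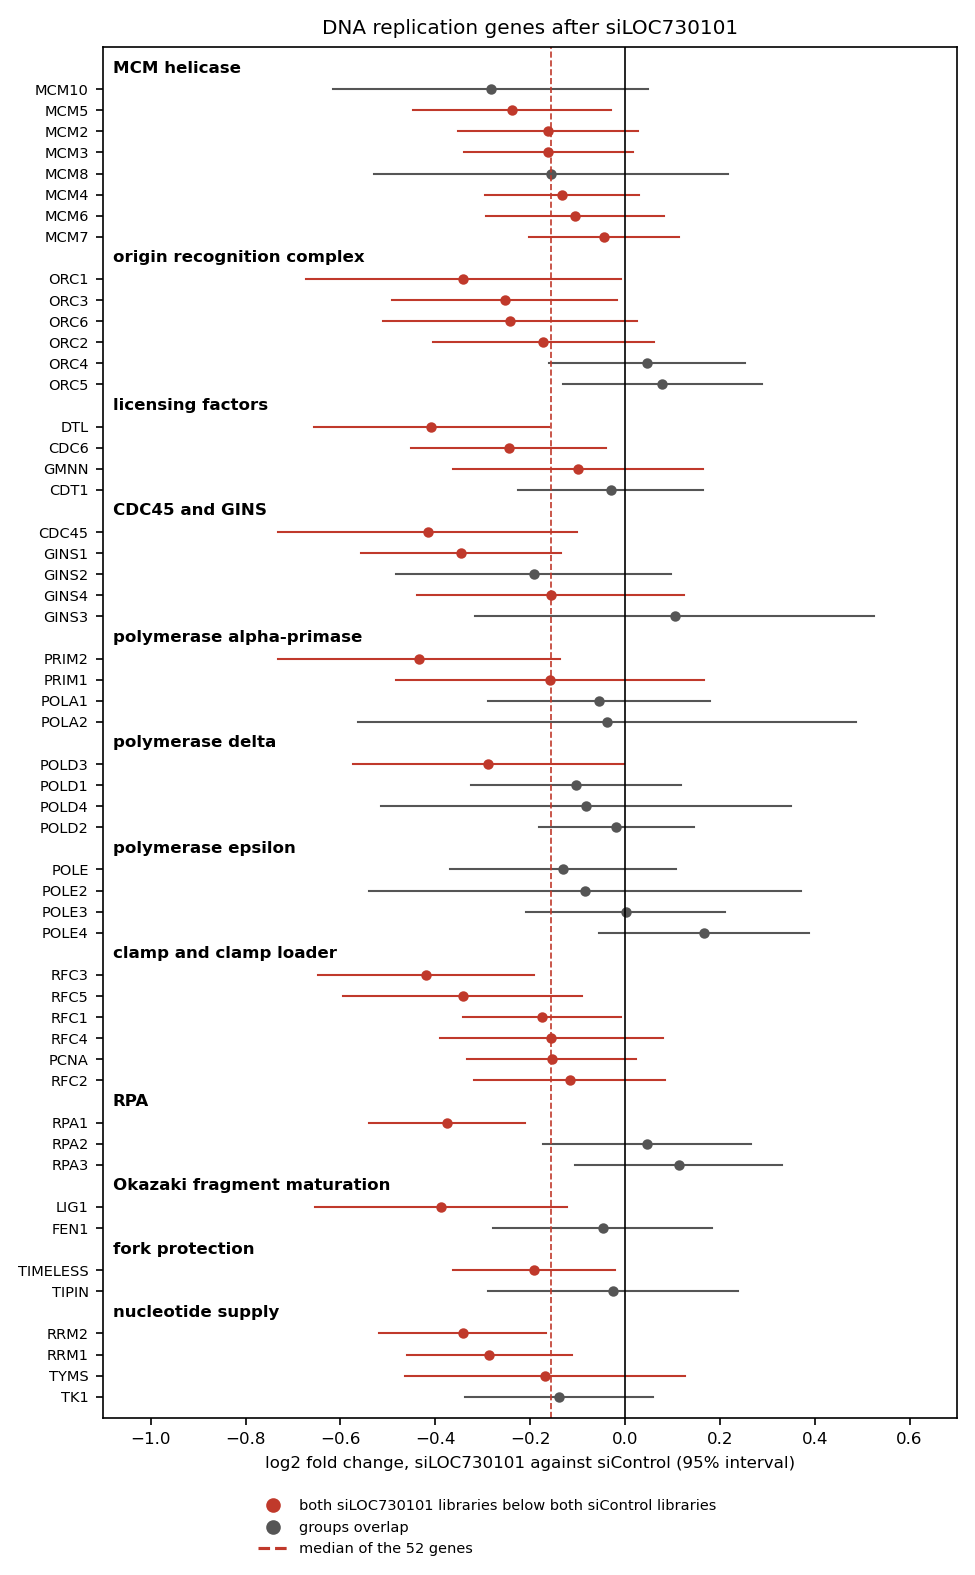
Log2 fold change of siLOC730101 against siControl for all 52 members, grouped by role, with 95% intervals from edgeR. Red points are the 31 genes with both siLOC730101 libraries below both siControl libraries, grey points the 21 whose groups overlap, and the dashed line is the median of -0.16; most points lie left of 0, and all 6 clamp and clamp loader genes are red.

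RPA1, the large DNA-binding subunit of RPA, was the member with the lowest adjusted p. Its levels were 200.6, 200.7, 147.5 and 161.9 CPM. Both knockdown libraries were thus well below 2 nearly equal controls, at 77.1% of their mean, with a log2 fold change of -0.38 (SE 0.078, 95% interval -0.54 to -0.21) and an adjusted p of 0.0594 by edgeR. The other subunits of the trimer were not lower. RPA2, which is phosphorylated under replication stress, had 44.9, 41.3, 41.9 and 47.1 CPM, and RPA3, the small subunit, had 42.5, 46.6, 45.3 and 51.0. Their groups overlapped, with log2 fold changes of 0.047 and 0.11, and adjusted p of 0.928 and 0.765 by edgeR, and the RPA3 value was 0.021 without siLOC730101 replicate 2. Counts of 1 library share its depth, so their ratio gives a comparison that needs no scaling. The RPA1 to RPA2 ratio was 4.47 and 4.86 in the controls and 3.52 and 3.44 in the knockdown, and the RPA1 to RPA3 ratio was 4.72, 4.31, 3.26 and 3.18. Both ratios were lower in each knockdown library than in each control, while the RPA2 to RPA3 ratio of 1.06, 0.887, 0.925 and 0.925 overlapped. With 2 libraries against 2, an exact permutation test (two-sided) of such a ratio cannot give a p below 0.333.

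The nucleotide supply genes stood at a median log2 fold change of -0.23, and 3 of 4 were lower without overlap, against 20.5% of all genes tested. RRM2, the S-phase-regulated small subunit of ribonucleotide reductase, had 135.8, 149.0, 108.7 and 115.9 CPM, and RRM1, its large catalytic subunit, had 145.1, 158.8, 128.9 and 120.4. In both genes each knockdown library was below each control. The log2 fold change of RRM2 was -0.34 (SE 0.083, 95% interval -0.52 to -0.17; adjusted p = 0.104 by edgeR) and that of RRM1 was -0.29 (SE 0.082; adjusted p = 0.166). The RRM2 to RRM1 ratio was 0.936, 0.938, 0.843 and 0.963, and its groups overlapped. Thymidine kinase TK1, which salvages thymidine, had 109.5, 121.2, 96.3 and 113.1 CPM, so that knockdown replicate 2 lay between the controls. TYMS, which makes thymidylate, was at 17.3, 16.4, 14.9 and 15.1 CPM, lower without overlap but with a log2 fold change of only -0.17.

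All 6 clamp and clamp loader genes were lower without overlap, against 20.5% of all genes tested, with a median log2 fold change of -0.17. RFC3, a small subunit of the loader, had 36.1, 35.7, 27.5 and 26.2 CPM. The replicates of each group nearly coincided and the groups were well apart, with a log2 fold change of -0.42 (SE 0.11, 95% interval -0.65 to -0.19) and an adjusted p of 0.121 by edgeR. RFC5, another small subunit, was at 27.1, 29.7, 23.2 and 21.6 CPM (log2 fold change -0.34, SE 0.12). RFC1, the large subunit, was at 125.5, 122.5, 109.3 and 110.3 CPM (log2 fold change -0.18, SE 0.078). RFC2 was at 54.3, 56.8, 48.8 and 53.6 CPM, with a log2 fold change of -0.12 that was -0.050 when siLOC730101 replicate 1 was left out and -0.19 when replicate 2 was, and RFC4 and the clamp PCNA were at -0.16 and -0.15. Ratios among the small subunits were compared in the same way. The RFC3 to RFC4 ratio was 1.06, 1.14, 0.898 and 0.927, and the RFC3 to RFC2 ratio was 0.665, 0.629, 0.563 and 0.488, both lower in each knockdown library. RFC3 against RFC5 overlapped, at 1.33, 1.20, 1.18 and 1.21.

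**Figure D3:**
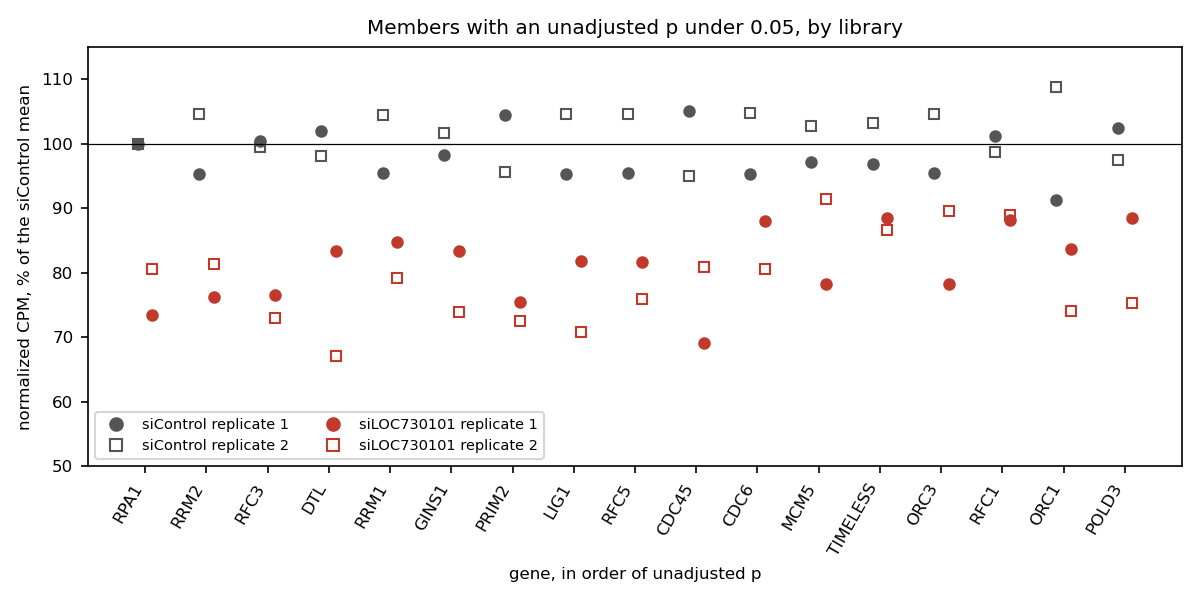
Normalised CPM of each library as a percent of the siControl mean (vertical axis) for the 17 members with an unadjusted p under 0.05 in edgeR, ordered by that p (horizontal axis); grey marks are siControl, red marks siLOC730101, filled circles replicate 1 and open squares replicate 2. In all 17 genes both red marks lie below both grey marks, with RPA1 showing the closest pair of controls.

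Within the MCM genes, 6 of 8 were lower without overlap, against 20.5% of all genes tested. All 8 had a log2 fold change below 0 (median -0.16), against 50.4%. MCM5, a ring subunit, had 62.7, 66.3, 50.4 and 58.9 CPM and a log2 fold change of -0.24 (SE 0.098; adjusted p = 0.374 by edgeR), which was -0.13 when siLOC730101 replicate 1 was left out and -0.36 when replicate 2 was. MCM10, which helps activate the helicase, had a fitted value of -0.28, but its 19.5, 23.1, 20.2 and 14.8 CPM overlapped because knockdown replicate 1 lay above a control. The MCM10 value was -0.52 without siLOC730101 replicate 1, -0.082 without siLOC730101 replicate 2 and -0.16 without siControl replicate 2. MCM7, the ring subunit whose gene hosts the miR-106b cluster in an intron, was at 171.9, 176.9, 167.8 and 170.7 CPM. That is a log2 fold change of -0.043, with a 95% interval from -0.20 to 0.11. The interval includes the values of MCM2, MCM3, MCM4 and MCM6 but not the -0.24 of MCM5. MCM2, MCM3, MCM4 and MCM6 ran from -0.16 to -0.11, and MCM8, which acts in recombination, overlapped at -0.16. Per kilobase of exon, the level of MCM7 was 39.2 and 40.3 CPM per kb in the controls and 38.3 and 38.9 in the knockdown, the highest of the ring genes. MCM5 was the lowest on that scale, at 8.63, 9.12, 6.94 and 8.11. The scale divides by all annotated exons of a gene, 7268 bases for MCM5 and 4715 for MCM2. Ranks between genes therefore depend on that length. The ratio of MCM5 to MCM7 counts was 0.365, 0.375, 0.301 and 0.345, and MCM2, MCM3 and MCM4 were likewise lower against MCM7 in both knockdown libraries, while MCM6 against MCM7 overlapped.

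Among the origin recognition genes, ORC1, ORC2, ORC3 and ORC6 were lower without overlap (66.7%, against 20.5% of all genes tested), and ORC4 and ORC5 were not. ORC1, the subunit whose level is regulated through the cell cycle, had 14.4, 17.2, 13.2 and 11.7 CPM (log2 fold change -0.34, SE 0.16; adjusted p = 0.449 by edgeR). ORC3, a core subunit, had 36.2, 39.6, 29.6 and 34.0 CPM (log2 fold change -0.25, SE 0.11). ORC5, another core subunit, had 69.96, 60.03, 65.28 and 72.07 CPM, and its log2 fold change of 0.079 turned to -0.027 without siControl replicate 2. Without siControl replicate 2 the value of ORC1 was -0.21, and without siLOC730101 replicate 1 that of ORC3 was -0.16. The intervals of ORC4 and ORC5 include both directions.

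Licensing factors had a median log2 fold change of -0.17, and 3 of 4 were lower without overlap, against 20.5% of all genes tested. DTL had 42.8, 41.1, 35.0 and 28.2 CPM, with a log2 fold change of -0.41 (SE 0.12, 95% interval -0.66 to -0.16; adjusted p = 0.165 by edgeR). Its knockdown libraries were both below the controls but differed from each other, and the value was -0.27 without siLOC730101 replicate 2. CDC6 had 56.2, 61.7, 51.9 and 47.5 CPM (log2 fold change -0.24, SE 0.097). CDT1, the loader that DTL marks for degradation, had 65.0, 69.1, 62.3 and 69.1 CPM and a log2 fold change of -0.030, and its sign changed without siControl replicate 2 (0.015) or without siLOC730101 replicate 1 (0.043). GMNN, which encodes geminin, was at -0.099, lower without overlap.

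CDC45 and GINS1 were the lower members of the helicase cofactors. CDC45 had 18.7, 16.9, 12.3 and 14.4 CPM (log2 fold change -0.42, SE 0.15; adjusted p = 0.276 by edgeR). GINS1 had 52.4, 54.1, 44.4 and 39.4 CPM (log2 fold change -0.35, SE 0.099; adjusted p = 0.169). Each knockdown library was below each control in both genes. GINS3 was expressed at only 8.90, 10.1, 8.30 and 12.1 CPM, where the 2 knockdown libraries bracketed the controls, and its log2 fold change of 0.10 became -0.20 without siLOC730101 replicate 2. GINS2 overlapped at -0.19, and GINS4 was lower without overlap at -0.16. The GINS1 to GINS4 ratio was 2.62, 2.76, 2.35 and 2.37, lower in both knockdown libraries, whereas the GINS1 to GINS2 ratio of 2.52, 2.15, 2.38 and 1.83 overlapped.

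Among the DNA polymerase and primase genes, only POLD3 and PRIM2 had an unadjusted p under 0.05 by edgeR. Polymerase epsilon had 0 of 4 genes lower without overlap and a median log2 fold change of -0.041. POLE, its catalytic subunit, had 67.6, 52.3, 55.4 and 54.3 CPM, so the controls differed from each other more than the groups did, and the log2 fold change of -0.13 became 0.062 without siControl replicate 1. POLE4, a small histone-fold subunit, was the highest member in this fit, at 46.5, 54.5, 53.7 and 59.7 CPM (log2 fold change 0.17, SE 0.10; adjusted p = 0.609 by edgeR), and its value was 0.050 when siControl replicate 1 was left out and 0.29 when replicate 2 was. In polymerase delta, all 4 genes had a log2 fold change below 0 (median -0.093). Of these, 1 (25%) was lower without overlap, near the 20.5% of all genes tested. This was POLD3, an accessory subunit, at 21.4, 20.4, 18.5 and 15.8 CPM (log2 fold change -0.29, SE 0.13, and -0.18 without siLOC730101 replicate 2), whereas POLD2, the most abundant of the 4 per kilobase of exon, was at 280.5, 293.9, 269.8 and 297.5 CPM (log2 fold change -0.018). In polymerase alpha-primase, all 4 were below 0 (median -0.11), and 2 of 4 were lower without overlap, against 20.5% of all genes tested. PRIM2, the large primase subunit, had 19.5, 17.8, 14.1 and 13.5 CPM and the lowest log2 fold change of all 52 members in this fit at -0.43 (SE 0.14, 95% interval -0.73 to -0.14; adjusted p = 0.222). Its partner PRIM1, which makes the primer, was at -0.16, and the PRIM2 to PRIM1 ratio of 1.44, 1.14, 1.04 and 1.08 was lower in both knockdown libraries. POLA2, at 5.64, 4.19, 5.18 and 4.40 CPM, was too low and too variable to place, with a 95% interval from -0.56 to 0.49.

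In Okazaki fragment maturation and fork protection, 1 gene of each pair was lower. LIG1, DNA ligase 1, had 26.3, 28.9, 22.6 and 19.6 CPM (log2 fold change -0.39, SE 0.12; adjusted p = 0.222 by edgeR), while the flap nuclease FEN1 had 43.0, 50.3, 42.3 and 47.9 CPM (log2 fold change -0.047). The ratio of LIG1 to FEN1 counts was 0.613, 0.575, 0.535 and 0.408. TIMELESS had 117.1, 124.8, 107.0 and 104.8 CPM (log2 fold change -0.19, SE 0.080; adjusted p = 0.389), and its partner TIPIN had 22.1, 22.0, 22.9 and 20.4 (log2 fold change -0.025). The LIG1 groups and the TIMELESS groups did not overlap, and those of FEN1 and TIPIN did.

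**Figure D4:**
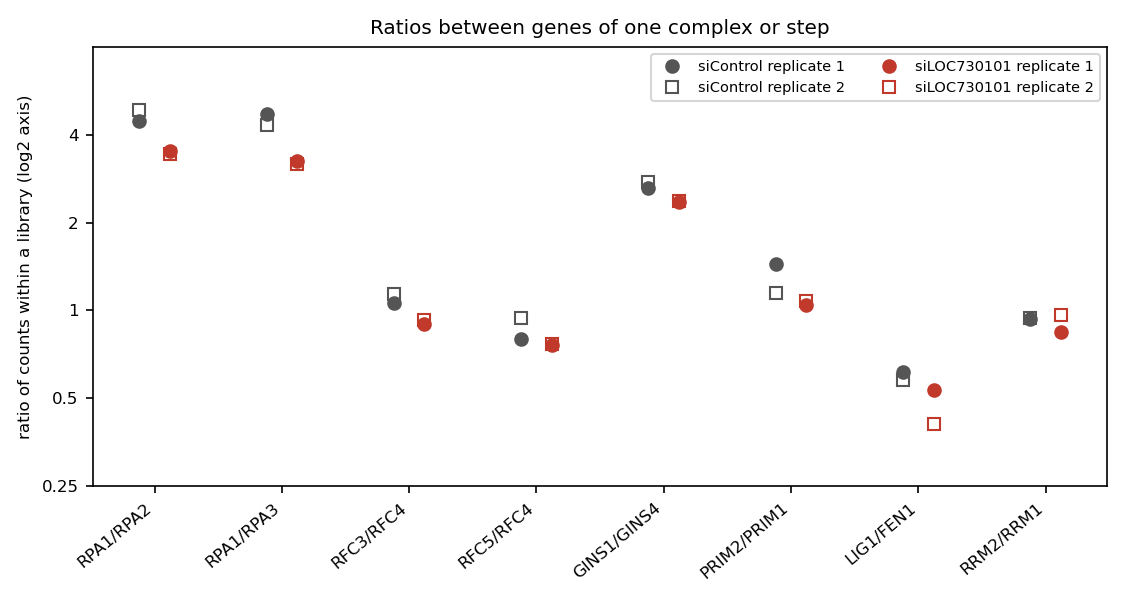
Ratio of the counts of 2 genes of 1 complex or step within each library (vertical axis, log2 scale); grey marks are siControl, red marks siLOC730101, filled circles replicate 1 and open squares replicate 2. The pairs were chosen after their values were seen; both red marks lie below both grey marks for those drawn except RRM2 to RRM1, and the gap is widest for RPA1 against RPA2 and RPA3.

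The fold changes were then set beside the promoter letters. The 23 members with E2F letters had a median log2 fold change of -0.15 and 13 were lower without overlap, and the 23 without had a median of -0.17 and 14 lower. The 30 members with a CCAAT box had a median of -0.17, with 29 below 0 and 20 lower without overlap, and the 16 without had a median of -0.094, with 12 below 0 and 7 lower without overlap. Over all tested genes with a promoter sequence the median was 0.015 with a CCAAT box and 0.013 without. With E2F letters it was -0.0051, and without them 0.015. Over all genes tested, 50.4% were below 0 and 20.5% were lower without overlap. Those shares were not split by promoter letters, so the members' counts with and without letters have no matching share. These are descriptions of the counts, and no test was run on the differences.

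A further 49 genes of replication, fixed by function (origin firing, checkpoint, alternative clamp loaders, topoisomerases and primer removal, chromatin assembly and nucleotide metabolism), were closer to the other genes. Their median log2 fold change was -0.039, and 29 of 49 (59.2%) were below 0, against 50.4% of all genes tested. Without overlap, 16 (32.7%) were lower, against 20.5% of genes tested, and 4 were higher, against 21.3%. They thus leaned the same way as the members, but less. None passed an adjusted p under 0.05 in edgeR. The share lower at an unadjusted p under 0.05 was 12.2%, against 4.39% of genes tested. At an unadjusted p under 0.05, 6 were lower: ATAD5, which unloads PCNA (log2 fold change -0.52, SE 0.17), CLSPN, a checkpoint adaptor at the fork (-0.35, SE 0.13), TOP2A, a topoisomerase (-0.30, SE 0.090), WDHD1, which ties polymerase alpha to the helicase (-0.24, SE 0.11), CHTF18, of an alternative clamp loader (-0.22, SE 0.095), and DNMT1, the maintenance DNA methyltransferase (-0.19, SE 0.078). In each of these both knockdown libraries were below both controls. NME1, a nucleoside diphosphate kinase, was the 1 higher gene, at a log2 fold change of 0.61 (SE 0.13; adjusted p = 0.0641). Part of its exons (18.7%) overlaps the read-through gene NME1-NME2.

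Mitotic markers were lower in the same libraries. All 8 (MKI67, CCNB1, CDK1, AURKA, PLK1, BUB1, CENPF and TPX2) had both knockdown libraries below both controls, against 20.5% of all genes tested. These markers too were listed with earlier results of these data known. Their median log2 fold change was -0.19, and the lowest adjusted p by edgeR was that of MKI67 at 0.116 (log2 fold change -0.35, SE 0.087). Their CPM summed to 653.6, 671.8, 591.2 and 565.5. The summed CPM of the 8 luminal markers, led by KLK3, was 6248, 5592, 5893 and 6251. Without overlap, SLC45A3 (log2 fold change -0.24) and FOLH1 (-0.14) were lower, 25% of the 8, against 20.5% of all genes tested. KRT8 (0.18) and KRT18 (0.12) were higher without overlap, 2 of the 8, against 21.3%. These shares were near those of all genes tested, and none of the 8 had an adjusted p under 0.05 in edgeR. The markers of other cell types summed to 17.5, 13.7, 13.3 and 15.8. The part of a changed share of cycling cells in the members' values was not tested.

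One question of the study is whether LOC730101 acts through the microRNA miR-1-3p, so matches to that microRNA were counted in the 3′ untranslated regions of the members. Its mature sequence from RefSeq is printed with the seed, bases 2 to 8, in capitals, followed by the matches in 4 members (30 bases each, build GRCh37, capitals marking the seed match ACATTCC).
hsa-miR-1-3p: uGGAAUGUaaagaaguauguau
RPA1 first match, chr17:1801235-1801264, plus strand: tctacctgtacACATTCCtgcattcatgta
RPA1 second match, chr17:1802017-1802046, plus strand: attgtttagacACATTCCttcctacccttc
ORC6, chr16:46731508-46731537, plus strand: caaactggtatACATTCCaaactgatagta
POLA1, chrX:25014689-25014718, plus strand: gttttacactcACATTCCctttttgcccct
POLD4, chr11:67118647-67118676, minus strand: aacatatctatACATTCCcagcaagcacct

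A match was present in 5 of the 52 members (9.62%), the 4 above and GINS4, against 13.3% of 13455 tested genes. The members' 3′ untranslated regions were shorter, with a median of 872 bases against 1304. The 5 members with a match had a median log2 fold change of -0.16 and all were below 0, and the 47 without had a median of -0.16 with 40 below 0. ORC6, whose match is followed by an A opposite the first base of the microRNA, had 30.6, 30.3, 28.7 and 22.8 CPM, POLA1 overlapped at -0.055 and POLD4 overlapped at -0.082. The microRNA itself is not measured by poly(A) RNA-seq.

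Counting by gene name without strand could blur some of these values. Exons of 8 members were overlapped over more than 20% of their length by another gene, most of all TYMS at 47.9% and POLA2 at 40%, and the 44 others had a median log2 fold change of -0.16 with 37 below 0. Rows named as pseudogenes of members held at most 8 counts over all 4 libraries, so copies took few of the assigned reads. With the trend of log2 fold change on exon length over all genes removed, the members' median was -0.11 and 75% were below 0. The share of all genes below 0 was not computed for that setting.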

How the data were processed

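RNA from 4 DaroR libraries (2 siControl, 2 siLOC730101) was analysed. The authors deposited raw read counts per gene, which the file header shows were made with featureCounts 2.0.1 on the exons of GENCODE 41 (hg38), summed by gene name, with neither a strand nor a paired-end option. Whether paired reads were supplied, so that both mates were counted, is not given in the sources used here; even numbers made up 66.0% to 70.1% of the counts from 1 to 20, and each p-value takes the counts as independent reads. The aligner and build are given differently in the study's methods (STAR, hg19) and in the submitters' processing notes (BWA, hg38). Depth was 39213498 to 53368158 counts per library.

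Counts were filtered by filterByExpr, scaled by trimmed-mean factors and tested with edgeR 4.0.16 (glmQLFit in its legacy mode, glmQLFTest), with Benjamini-Hochberg adjustment over all 19349 genes tested and a threshold of 0.05. The code was tested on simulated data. CPM are normalised to the scaled library sizes, and standard errors are on the log2 scale. Groups overlap unless both libraries of 1 group lie beyond both of the other. Library ratios used a pseudocount of 0.5 CPM. Groups came from the sample titles. Replicates of a group differed by more than sampling noise (chi-square per degree of freedom 11.3 in siControl and 14.3 in siLOC730101), so each was counted once, and the biological coefficient of variation was 0.147.

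The members, their roles and the other lists were chosen with earlier results of these data known, and support no test. Some luminal markers first listed are not reported here. Members were named with full values when their unadjusted p was under 0.05 or when they had the lowest or highest log2 fold change of a role group, and other replication genes when their unadjusted p was under 0.05; the promoters printed were chosen after their values were seen. Motifs were searched in RefSeq promoters (GRCh38.p14) and seed matches in 3′ untranslated regions of GRCh37. Alternatives were DESeq2 1.42.0, other scalings, filters and moderation, halved counts, a replicate block, removal of each library and removal of an exon length trend.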

Additional observations from a re-analysis of the deposited data

How the results depend on the processing

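The members' share below 0 stayed between 80.8% and 88.5% in every alternative except removal of the exon length trend (75%). The share over all genes ran from 49.3% (without siControl replicate 1) to 57.1% (library size only). It was not computed with the length trend removed. In no alternative were members called higher. The number called lower, 0 with edgeR as described, was 4 with DESeq2, 1 with upper-quartile factors, 2 with library size only, 5 without an expression filter, 2 with a mean normalised count above 50, 1 with the legacy mode off, 1 with robust moderation, 1 with halved counts and 0 to 4 when 1 library was left out. Over all genes the number called lower, 14 as described, was in the same order 63, 19, 35, 113, 50, 24, 17, 30 and 18 to 129. RPA1 was among those called in 11 of the settings, with an adjusted p from 9.4e-05 to 0.225 over all of them. The labels do not say what a shared replicate number stands for, and deviations from the group means correlated at 0.038 over all genes and 0.18 over members between libraries of 1 number, over only 2 pairs. With the replicate number as a block, 6 members were called lower (DTL, RRM2, RRM1, RFC3, RPA1 and GINS1), and 167 genes lower and 485 higher over all genes, against 14 and 41 without it. DESeq2 called 63 genes lower and 234 higher. The cause of these shifts in the number of calls was not tested.

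The members' median ran from -0.20 (without siControl replicate 1) to -0.13 when 1 library was left out, and was -0.11 with the length trend removed. The median of the other replication genes was -0.076 with library size only, -0.0062 with the length trend removed and -0.073 to -0.030 when 1 library was left out. A scaling moved the median of all genes by at most 0.037, and the members' median stayed -0.15 from it under each. Single genes were followed through the alternatives only for the members named with full values, so signs of the other members were not checked. Among the named members, removing the length trend turned the log2 fold change positive for MCM7 (0.0016), CDT1 (0.024), POLA2 (0.0026), POLD2 (0.015), FEN1 (0.011) and TIPIN (0.029). With 1 library left out, signs also turned in POLA2 (-0.23 to 0.19), POLE (-0.30 to 0.062), ORC5 (-0.027 to 0.19), CDT1 (-0.11 to 0.043), POLD2 (-0.095 to 0.051), FEN1 (-0.16 to 0.070), GINS3 (-0.20 to 0.35) and TIPIN (-0.11 to 0.052), and these 8 are not placed by direction.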
